A study of Mus musculus with 12 samples.

Results

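Integrins are adhesion receptors that hold cells to the extracellular matrix (ECM). Each is a pair of an alpha and a beta chain, and the pair sets the ligand: some bind collagen, some bind laminin of the basement membrane, and some bind proteins such as fibronectin and vitronectin that carry the short RGD peptide. Inside the cell the beta chain meets adaptors that link it to actin. In fat, adipocytes sit in a basement membrane and preadipocytes in a looser, fibronectin-rich matrix, and a change from alpha 5 to alpha 6 integrin has been described when preadipocytes differentiate.

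The mRNA of 10 integrin genes was followed here in inguinal white adipose tissue (iWAT): the collagen-binding alpha chains Itga1 and Itga11, the laminin-binding alpha chains Itga3, Itga6 and Itga7, the RGD-binding alpha chains Itga5, Itga8 and Itgav, and the beta chains Itgb1 and Itgb5. The genes were chosen by symbol among the 54134 genes of the count table, each symbol had a single gene identifier there, and all 10 were among the 15585 genes that passed the filter on low counts. The mice were male C57BL/6J, injected in the tail vein at 8 weeks of age with an adeno-associated virus (AAV) of serotype 8, kept on chow for 4 weeks and fasted for 4 h before collection. The virus carried mouse Notum, an enzyme that removes the lipid from Wnt proteins, in 6 mice (AAV-Notum) and green fluorescent protein in 6 mice (AAV-GFP). In both groups the liver-specific TBG promoter drove the gene, so that the fat was not the tissue meant to express it, and no mice without virus were analysed here. Whether an integrin transcript was lower because fewer cells of a type were present or because each cell held less of it cannot be told apart in whole tissue.

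A library was made from each mouse, with 14711113 to 21618860 reads on genes, so that p-values measure the spread between mice. Where a gene is given mouse by mouse, the order is AAV-GFP-2011, AAV-GFP-2012, AAV-GFP-2013, AAV-GFP-2014, AAV-GFP-2021 and AAV-GFP-2022, then AAV-Notum-2031, AAV-Notum-2032, AAV-Notum-2033, AAV-Notum-2034, AAV-Notum-2041 and AAV-Notum-2042. Libraries differed in their mix of cells. The summed level of 15 lymphoid markers was 19.6 CPM (reads scaled to library size, with TMM factors) in mouse AAV-GFP-2011 and 10.5 CPM in mouse AAV-GFP-2014, against 307 to 2236 CPM in the other 10 mice. The 8 adipocyte markers summed to 25241 to 42534 CPM in AAV-GFP mice and 21833 to 49601 CPM in AAV-Notum mice, and each of them was above 0 in every mouse. Notum mRNA in the fat was 0.0595 to 0.995 CPM in AAV-GFP mice and 0.457 to 0.905 CPM in 4 AAV-Notum mice, but 29.3 and 26.6 CPM in mice AAV-Notum-2032 and AAV-Notum-2041.

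Sequence just upstream of the transcription start is shown for the integrin gene with the steadiest difference between the groups (Itga5), the one with the largest fitted difference (Itgb5) and the common beta chain (Itgb1). These are the 250 bases before the RefSeq start on GRCm38.p6, 5′ to 3′ on the gene's own strand, with the GC box GGGCGG or its reverse complement CCGCCC in capitals. They lie at chr15:103366792-103367041 on the minus strand for Itga5, at chr16:33829415-33829664 on the plus strand for Itgb5 and at chr8:128685404-128685653 on the plus strand for Itgb1.
Itga5: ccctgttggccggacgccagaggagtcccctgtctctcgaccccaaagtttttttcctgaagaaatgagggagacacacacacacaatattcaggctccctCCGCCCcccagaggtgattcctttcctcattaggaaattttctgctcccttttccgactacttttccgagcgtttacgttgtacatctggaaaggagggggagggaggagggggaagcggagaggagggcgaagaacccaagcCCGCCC
Itgb5: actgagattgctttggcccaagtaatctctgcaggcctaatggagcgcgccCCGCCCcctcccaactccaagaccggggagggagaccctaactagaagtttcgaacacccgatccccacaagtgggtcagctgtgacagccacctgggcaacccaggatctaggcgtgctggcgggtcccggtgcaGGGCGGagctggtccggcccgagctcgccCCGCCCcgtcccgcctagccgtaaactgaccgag
Itgb1: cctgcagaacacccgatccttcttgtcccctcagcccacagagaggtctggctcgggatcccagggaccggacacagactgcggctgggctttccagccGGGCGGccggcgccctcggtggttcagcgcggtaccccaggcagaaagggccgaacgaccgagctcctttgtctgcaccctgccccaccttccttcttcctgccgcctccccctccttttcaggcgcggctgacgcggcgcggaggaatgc

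A RefSeq promoter window of 300 bases, from 250 before to 50 after a start, was matched for 8 of the 10 genes by symbol, in 9 windows because Itga3 has 2. Itga6 and Itga7 had no entry. The GC box was in 6 of the 9 windows on either strand, with 2 copies for Itga5, 3 for Itgb5 and 1 for Itgb1, and in 35.9% of the 32544 distinct windows of that length. The letters CTTTGAT, a form of the core recognised by the TCF/LEF factors of Wnt signaling, were in 0 of the 9 windows and in 3.73% of all windows. Other forms of that core were not searched for. The AP-1 letters TGANTCA were in 1 of the 9 windows, a window of Itga3, and in 7.79% of all windows. These are matches of letters only.

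Itgb1, the beta chain that pairs with most matrix-binding alpha chains, was the most abundant integrin mRNA. Per kilobase of exon, its level in AAV-GFP mice was 94.8 ± 12.4 CPM (SD, n = 6), above the range of each of the others. Itgb5 followed at 25.2 ± 9.59 CPM per kilobase and Itga7 at 22.9 ± 8.08 CPM per kilobase, with ranges over mice that overlapped. Itga6 had 11.4 ± 1.76, Itga5 6.24 ± 0.657 and Itga1 5.49 ± 0.910 CPM per kilobase. The ranges of Itga5 and Itga1 overlapped, as did that of Itga6 with those of Itga7 and of Itgb5 (highest Itga6 13.9, lowest Itgb5 13.7). Itgav had 3.73 ± 0.315, Itga3 1.70 ± 0.330, Itga11 1.46 ± 0.441 and Itga8 0.201 ± 0.0572 CPM per kilobase, with Itga3 and Itga11 overlapping. In AAV-Notum mice the order was the same except that Itga7, at 18.4 ± 5.44, stood above Itgb5, at 15.4 ± 1.84 CPM per kilobase (SD, n = 6). The order of close neighbours also turned with the gene model: with the longest transcript in place of all exons, Itga7 stood above Itgb5 and Itga1 above Itga5 in both groups. In AAV-Notum mice, Itga6 (22.5 CPM per kilobase) then also stood above Itgb5 (16.6), and Itgav (5.57) above Itga5 (4.95).

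In AAV-Notum iWAT, all 10 integrin genes had a fitted level below that of AAV-GFP iWAT, at a median log2 fold change of -0.31, where the median over all genes tested was 0.00773. In edgeR's quasi-likelihood test, 6 of the 10 were lower at an unadjusted p under 0.05 (Itgb5, Itga11, Itga5, Itga1, Itgb1 and Itga3) and 0 were higher, where 9.54% of all genes tested were lower and 4.64% higher by that rule. After adjustment over the 15585 genes, 0 of the 10 passed 0.05, where 0.0513% of all genes were called lower. By exact permutation of the mice, 5 of the 10 were lower at an unadjusted p under 0.05, against 7.79% of all genes tested. In 0 of the 10 did every AAV-Notum mouse lie below every AAV-GFP mouse, against 0.693% of all genes. With DESeq2, the tool the study used, 1 of the 10, Itga5, was lower at an adjusted p under 0.05, against 2.32% of the genes given an adjusted p. The count of 6 fell to 3 (Itga5, Itgb1 and Itgb5) without mouse AAV-GFP-2012, whose RNA was isolated on a later day than that of the other mice, and also without mouse AAV-Notum-2031. The count of 5 by exact permutation fell to 2 without AAV-GFP-2012, AAV-Notum-2031 or AAV-Notum-2041, and to 3 without AAV-GFP-2011, AAV-GFP-2014, AAV-Notum-2032, AAV-Notum-2033 or AAV-Notum-2034. With the lymphoid score as a covariate, 8 of the 10 genes had a fitted value below 0, and 2 were lower at an unadjusted p under 0.05, against 4.99% of all genes in that fit. Without the control mice low in lymphoid transcripts these counts were 9 and 3, against 4.95% of all genes. With RNA integrity as a covariate they were 10 and 4, against 5.95% of all genes.

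**Figure D1:**
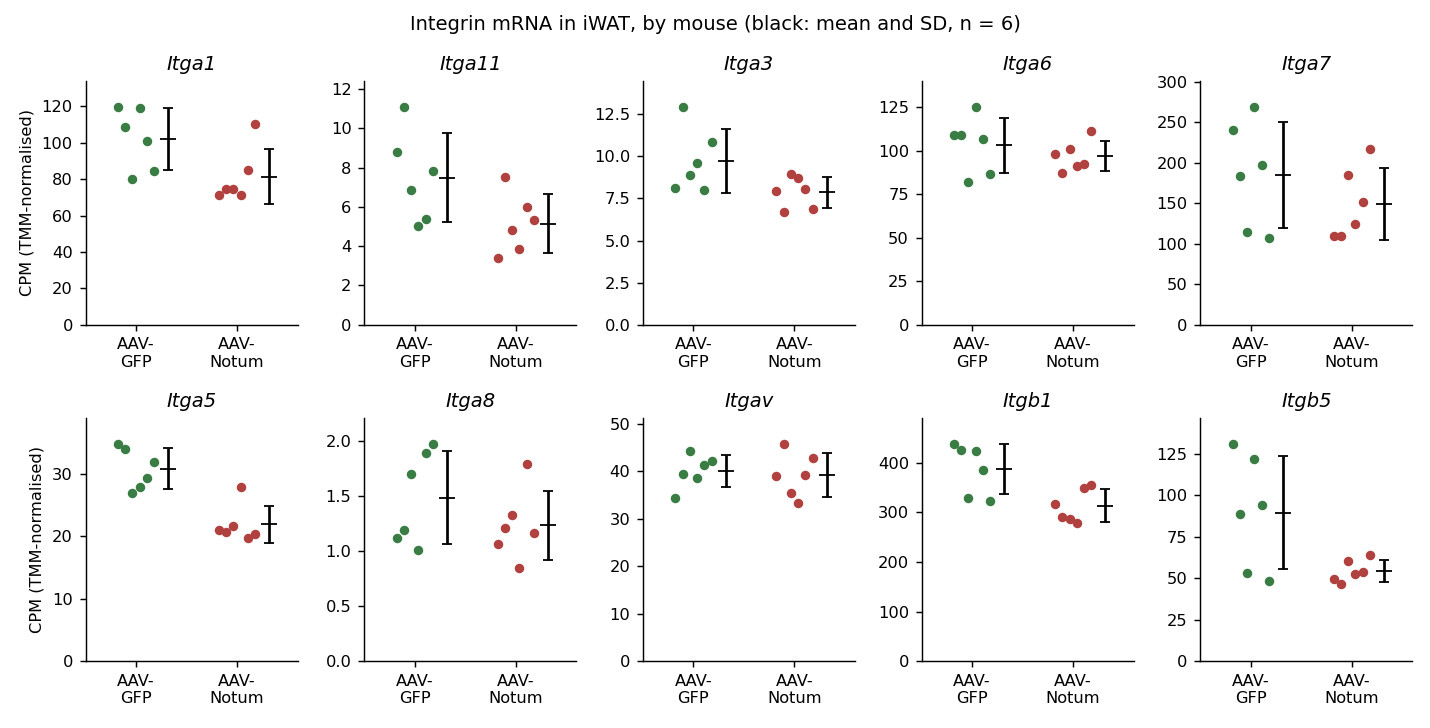
Level of each of the 10 integrin genes in each mouse, in CPM on a linear axis from 0, with 6 AAV-GFP mice in green and 6 AAV-Notum mice in red. Black bars give the mean and the SD. For Itga5, 5 AAV-Notum mice lie at or under 21.7 CPM and all AAV-GFP mice at or above 27.0 CPM, while for Itgb5 the AAV-GFP mice spread from 48.6 to 131 CPM.

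Itga5 codes for the alpha chain of the classical fibronectin receptor (ENSMUSG00000000555, chromosome 15 of GRCm38, 103344286 to 103366763, minus strand), and it had the smallest p of the 10. Its level was 34.7, 34.0, 27.0, 27.8, 29.3 and 31.8 CPM in the 6 AAV-GFP mice, in number order. It was 21.0, 20.6, 21.7, 27.9, 19.7 and 20.3 CPM in the 6 AAV-Notum mice, in number order. Thus 5 of the AAV-Notum mice had less than any control mouse, and mouse AAV-Notum-2034 lay among the lowest AAV-GFP mice. The means were 30.8 ± 3.24 CPM in AAV-GFP and 21.9 ± 3.02 CPM in AAV-Notum mice (SD, n = 6), with 314 to 635 reads in a mouse. Its fitted log2 fold change was -0.49 (standard error 0.10, 95% interval -0.71 to -0.27). The unadjusted p of edgeR was 3.93e-04, rank 58 among the 15585 genes, and the adjusted p was 0.105. By exact permutation the p of Itga5 was 0.00649 (0.252 when adjusted over all genes), and DESeq2 gave an adjusted p of 0.00481. In the other edgeR and limma fits its adjusted p ran from 0.0601 to 0.385, and its log2 fold change from -0.57 to -0.45.

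Itga8 and Itgav code for the other RGD-binding alpha chains, and neither passed 0.05. Itgav (ENSMUSG00000027087, chromosome 2, 83724397 to 83806916, plus strand), which pairs with several beta chains to bind vitronectin and latent TGF-β, ran from 34.5 to 44.3 CPM (median 40.4) in AAV-GFP mice and from 33.3 to 45.8 CPM (median 39.2) in AAV-Notum mice. The groups overlapped throughout, and Itgav had the fitted difference nearest to 0 of the 10, a log2 fold change of -0.03 with a 95% interval from -0.22 to 0.17. Itga8 (ENSMUSG00000026768, chromosome 2, 12106632 to 12301922, minus strand), a receptor of nephronectin, had few reads, with 15 to 41 reads per mouse. It ran from 1.01 to 1.97 CPM (median 1.44) in AAV-GFP mice and from 0.849 to 1.78 CPM (median 1.18) in AAV-Notum mice, a log2 fold change of -0.27 (95% interval -0.77 to 0.24, edgeR adjusted p = 0.543).

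Itgb5 codes for the beta chain that joins alpha v in a vitronectin receptor (ENSMUSG00000022817, chromosome 16, 33829665 to 33949338, plus strand), and it had the largest fitted difference. In AAV-GFP mice its SD, at 38.0% of the mean, was the widest of the 10, and in AAV-Notum mice it was 12.0%. In the 6 AAV-GFP mice, in number order, it was 131, 88.7, 53.2, 122.2, 94.3 and 48.6 CPM. In the 6 AAV-Notum mice it was 49.7, 46.6, 60.3, 52.7, 53.8 and 64.1 CPM. The AAV-Notum mice thus lay close together, and mice AAV-GFP-2013 and AAV-GFP-2022 lay among them. The means were 89.7 ± 34.1 and 54.6 ± 6.55 CPM (SD, n = 6), and the fitted log2 fold change was -0.72 (standard error 0.23, 95% interval -1.22 to -0.22). The unadjusted p of edgeR was 0.00857 and the adjusted p 0.214, and the exact permutation p was 0.0455. The highest Itgb5 levels were those of the mice with few lymphoid transcripts (AAV-GFP-2011, AAV-GFP-2014). Without them the log2 fold change was -0.39 (edgeR unadjusted p = 0.0694). The fit with a lymphoid covariate is given further on.

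**Figure D2:**
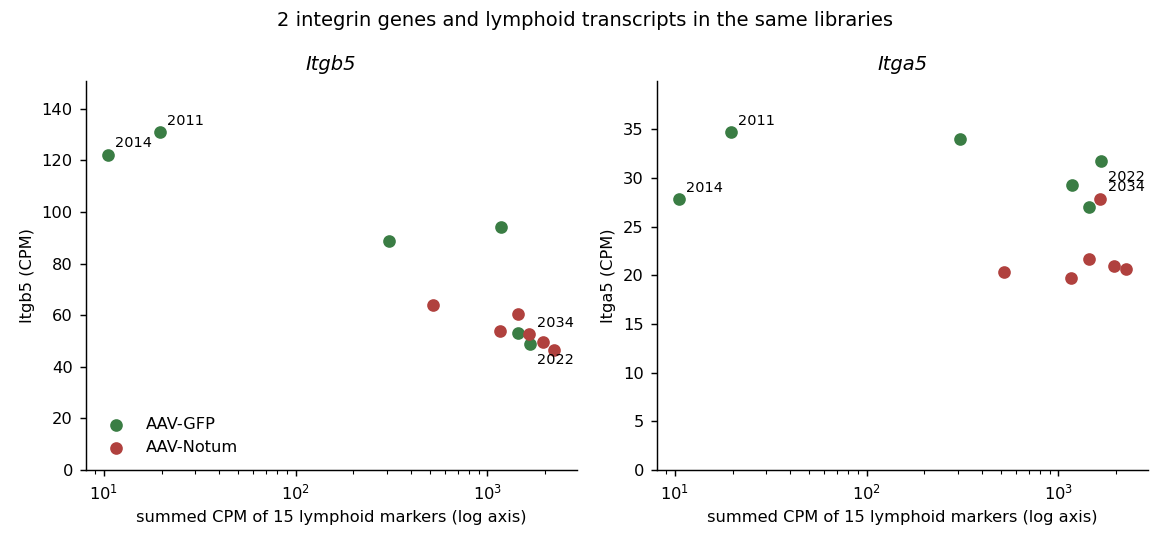
Level of Itgb5 and of Itga5 in CPM against the summed CPM of 15 lymphoid markers on a log axis, with a point for each of the 12 mice (green AAV-GFP, red AAV-Notum) and 4 mice named by number. Itgb5 is highest, at 131 and 122.2 CPM, in the mice at 19.6 and 10.5 CPM of lymphoid markers, while Itga5 in these mice is at 34.7 CPM, the highest of the 12 mice, and 27.8 CPM, with the other AAV-GFP mice from 27.0 to 34.0 CPM.

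Itgb1 (ENSMUSG00000025809, chromosome 8, 128685654 to 128733200, plus strand) was 437.7, 425.1, 328.6, 422.5, 385 and 322.9 CPM in the 6 AAV-GFP mice, in number order. In the 6 AAV-Notum mice it was 316.5, 291.3, 286.8, 278, 349.6 and 355 CPM. Each AAV-Notum mouse was under the control mean and 4 were under the lowest control, while AAV-Notum-2041 and AAV-Notum-2042 lay above the lowest controls, AAV-GFP-2013 and AAV-GFP-2022. The means were 387 ± 50.6 and 312.9 ± 33.2 CPM (SD, n = 6), and the fitted log2 fold change was -0.31 (standard error 0.11, 95% interval -0.54 to -0.08). The unadjusted p of edgeR was 0.0132, the adjusted p 0.236 and the exact permutation p 0.0173. Without AAV-GFP-2011 and AAV-GFP-2014 the log2 fold change of Itgb1 was -0.23 (edgeR unadjusted p = 0.0806).

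Both collagen-binding alpha chains were lower at an unadjusted p under 0.05, as were 9.54% of all genes tested. With RNA integrity as a covariate Itga1 was at -0.26 (edgeR unadjusted p = 0.0841) and Itga11 at -0.55 (edgeR unadjusted p = 0.0586), so that neither passed 0.05 while the value of Itga11 did not shrink. Itga1, a receptor for collagen IV and other collagens (ENSMUSG00000042284, chromosome 13, 114953096 to 115101964, minus strand), was 119.6, 108.8, 79.9, 118.9, 101.1 and 84.6 CPM in the 6 AAV-GFP mice, in number order. It was 71.1, 74.8, 74.7, 71.4, 85.2 and 110.5 CPM in the 6 AAV-Notum mice, in number order. Of the AAV-Notum mice, 4 lay below every AAV-GFP mouse, and mouse AAV-Notum-2042 lay above the AAV-GFP mean. The means of Itga1 were 102.2 ± 16.9 and 81.3 ± 15.2 CPM (SD, n = 6), and the fitted log2 fold change was -0.33 (standard error 0.14). For Itga1 edgeR gave an unadjusted p of 0.0331 and an adjusted p of 0.314, and the exact permutation p was 0.0433. Without AAV-GFP-2011 and AAV-GFP-2014 its log2 fold change was -0.21 (edgeR unadjusted p = 0.168).

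Itga11, a receptor for fibrillar collagen on fibroblasts (ENSMUSG00000032243, chromosome 9, 62677826 to 62783982, plus strand), ran from 5.01 to 11.1 CPM (median 7.33) in AAV-GFP mice and from 3.40 to 7.54 CPM (median 5.07) in AAV-Notum mice. The groups overlapped, with 3 AAV-Notum mice under the lowest control, and the gene had 67 to 186 reads in a mouse. The log2 fold change of Itga11 was -0.54 (standard error 0.24, 95% interval -1.05 to -0.03), with an unadjusted p of 0.0412 and an adjusted p of 0.333 in edgeR and an exact permutation p of 0.0606.

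Of the laminin-binding alpha chains, 1 of 3, Itga3, was lower at an unadjusted p under 0.05, against 9.54% of all genes tested. Itga3 (ENSMUSG00000001507, chromosome 11, 95044474 to 95076801, minus strand) ran from 7.98 to 12.9 CPM (median 9.24) in AAV-GFP mice and from 6.70 to 8.95 CPM (median 7.99) in AAV-Notum mice. Each AAV-Notum mouse was under the control mean, and the log2 fold change was -0.31 (standard error 0.14). For Itga3 edgeR gave an unadjusted p of 0.0459 and an adjusted p of 0.343, and the exact permutation p was 0.0411. The unadjusted p was 0.0581 in limma-voom, and in edgeR 0.0610 without the filter and 0.0522 with at least 10 counts in every mouse. It was 0.0494 in DESeq2, and 0.0236 in edgeR with RNA integrity as a covariate. The exact permutation p was no longer under 0.05 in 8 of the 12 fits with a mouse left out. Itga6, which pairs with beta 1 or beta 4 (ENSMUSG00000027111, chromosome 2, 71745616 to 71858416, plus strand), ran from 82.2 to 125.1 CPM (median 107.9) in AAV-GFP mice and from 87.2 to 111.4 CPM (median 95.2) in AAV-Notum mice. The AAV-Notum range of Itga6 lay within the AAV-GFP range, and the log2 fold change was -0.09 (95% interval -0.32 to 0.14, edgeR adjusted p = 0.642).

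Itga7, the main laminin receptor alpha chain of muscle (ENSMUSG00000025348, chromosome 10, 128933818 to 128958282, plus strand), was the most variable alpha chain in AAV-GFP mice after scaling by the mean, with an SD of 35.3% of the mean. It ran from 106.7 to 268.7 CPM (median 190.5) in AAV-GFP mice and from 109.1 to 217.1 CPM (median 137.5) in AAV-Notum mice. The groups overlapped over nearly the whole range, and the log2 fold change was -0.31 (95% interval -0.87 to 0.24, edgeR adjusted p = 0.525). Its value was -0.17 with RNA integrity and 0.14 with the lymphoid score as a covariate, and -0.02 without the control mice low in lymphoid transcripts. Exons of Itga7 overlap those of Mettl7b on the opposite strand, which had 1437 reads over the 12 mice against 34860 for Itga7, and whether the counting used strand is not given in the sources used here. Exons of Itga1, Itga8 and Itgav also overlap those of other genes, which had 72, 15 and 0 reads.

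Since most matrix-binding alpha chains need Itgb1 as partner, each gene was also set against Itgb1 within the same mouse. Of the 9 ratios, that of Itga6 to Itgb1 had the smallest exact permutation p. Its mean log2 ratio was -1.91 in AAV-GFP and -1.69 in AAV-Notum mice, a difference of 0.22 (exact permutation p = 0.0152, 0.10 when adjusted over all genes set against Itgb1). The ratio of Itgav to Itgb1 was higher by 0.27 (exact permutation p = 0.0887) and that of Itga5 was lower, with a difference of -0.19 (exact permutation p = 0.225). Itgb5, Itga11, Itga1, Itga3, Itga7 and Itga8 had differences of -0.32, -0.22, -0.03, 0.01, 0.02 and 0.07 in the log2 ratio, with exact permutation p from 0.121 to 0.948. Thus 1 of the 9 ratios was higher and 0 were lower at an unadjusted p under 0.05, and 0 passed after adjustment. That of Itga6 stayed under 0.05 with each mouse left out, at 0.19 to 0.27. The count of lower ratios was 1 without AAV-Notum-2034, where the ratio of Itga5 differed by -0.30 (exact permutation p = 0.0303), and without AAV-GFP-2022, where that of Itgb5 differed by -0.43 (exact permutation p = 0.0368). The ratio of Itgav was higher by 0.35 without AAV-GFP-2013 (exact permutation p = 0.0346) and by 0.34 without AAV-GFP-2022 (exact permutation p = 0.0476). The ratio of Itga11 ran from -0.36 (without AAV-Notum-2032) to -0.11 (without AAV-Notum-2031). By the same rule, 32.5% of all genes set against Itgb1 were higher and 1.68% were lower, so that the ratio of Itga6 is not particular to it.

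Mice of the same group differed in their integrins in a patterned way. With the group means subtracted, Itga1, Itga6, Itga7, Itgb1 and Itgb5 varied together over the 12 mice, with a Pearson r from 0.76 to 0.92 in all 10 of their pairs, and from 0.70 to 0.91 without AAV-GFP-2011 and AAV-GFP-2014. These 5 genes were singled out after the correlations were seen. The closest pair of the 45 was Itga7 and Itgb5, with a Pearson r of 0.92 (permutation p = 2e-05, adjusted over the 45 pairs 9e-04) and a Spearman rho of 0.97 (permutation p = 2e-05, adjusted 4.5e-04). Without the 2 mice farthest from the median of Itga7 the r was 0.87. The other 35 pairs, each with at least 1 of the other 5 genes, ran from -0.70 to 0.50. The lowest was Itga5 with Itgav, at a Pearson r of -0.70 (permutation p = 0.0111, adjusted 0.0453) and a Spearman rho of -0.64 (permutation p = 0.0298, adjusted 0.122). That relation rested on 2 mice, as the r was -0.30 without the mice farthest from the median of Itga5. The libraries also differed in cell mix, and these 5 genes moved with it. Their r with summed marker levels was taken over the 10 mice other than AAV-GFP-2011 and AAV-GFP-2014, with the group means of these 10 subtracted. It was 0.73 to 0.90 with adipocyte markers and 0.75 to 0.95 with smooth muscle and pericyte markers. It was 0.68 to 0.76 with endothelial markers and 0.66 to 0.73 with adipose progenitor and fibroblast markers. The last of these relations rested on leaving out the pair of mice, since over all 12 mice it was 0.21 to 0.45 (permutation p adjusted over the 110 relations 0.335 to 0.736). With lymphoid markers the r over these 10 mice was -0.86 to -0.68 and with macrophage markers -0.94 to -0.57. The highest of the 110 relations between a gene and a marker list, over all 12 mice, was that of Itga1 with smooth muscle and pericyte markers, at a Pearson r of 0.94 (permutation p = 2e-05, adjusted over the 110 relations 0.0022) and a Spearman rho of 0.96 (permutation p = 2e-05, adjusted 0.0022). Without the 2 mice farthest from the median of these markers the r was 0.91. The sum leans on Rgs5, with a mean of 247.7 CPM in AAV-GFP mice, where the 8 markers summed to 359 to 544 CPM. With the markers taken as the mean of log2 (CPM + 0.1), the values were 4.17 in AAV-GFP-2011 and 3.99 in AAV-GFP-2014, where Itga1 was highest. In the other AAV-GFP mice that mean was 4.03 to 4.64, and its relation to Itga1 was not tested. Over the same 10 mice, the r of Itga5 was -0.00571 with adipocyte, -0.04 with smooth muscle and pericyte and -0.12 with lymphoid markers, but 0.31 with macrophage, -0.52 with hepatocyte and -0.56 with epithelial markers. Over all 12 mice the r of Itga5 was -0.64 with epithelial markers (permutation p = 0.0273, adjusted 0.10; Spearman rho -0.67, permutation p = 0.0203, adjusted 0.077) and -0.59 with hepatocyte markers (permutation p = 0.0454, adjusted 0.153; Spearman rho -0.71, permutation p = 0.0116, adjusted 0.0511). Without the 2 mice farthest from the median of each list these were -0.49 and -0.40. The epithelial markers summed to only 1.35 to 21.5 CPM, and 3 of the 8 passed the filter. The hepatocyte sum leans on Trf, with a mean of 226.7 CPM in AAV-Notum mice, where the median sum was 313.1 CPM. The part of the marker lists other than the lymphoid one in the differences between the groups was not tested.

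**Figure D3:**
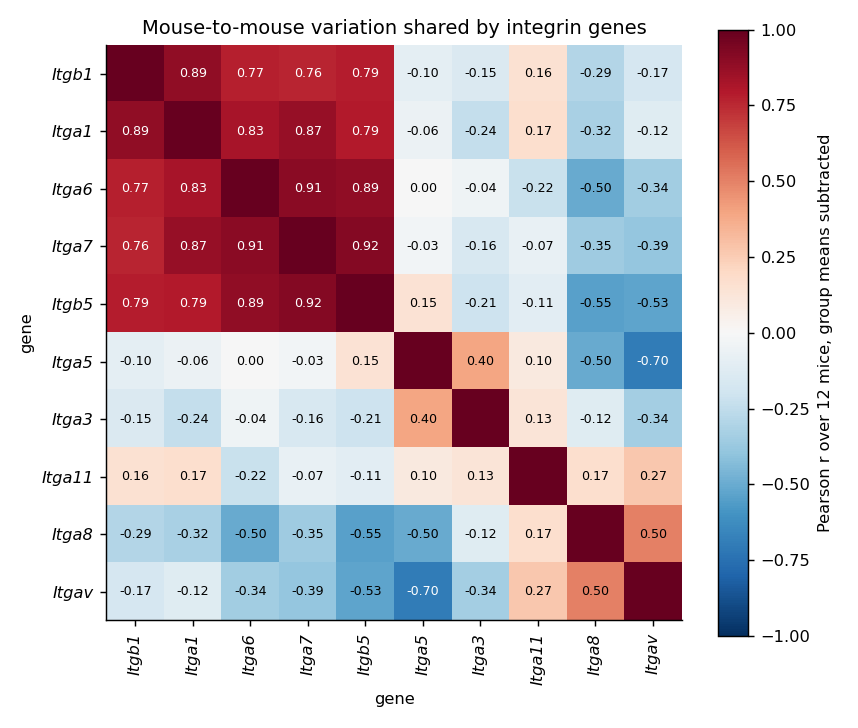
Pearson r between each pair of the 10 integrin genes over 12 mice, from log2 CPM with the group means subtracted, on a colour scale from -1 (blue) to 1 (red). The block of Itgb1, Itga1, Itga6, Itga7 and Itgb5 at upper left holds r from 0.76 to 0.92, and the r of Itga5 with these 5 genes lies between -0.10 and 0.15.

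The genes most like each member in this variation, among 11388 genes of at least 5 CPM, were named by the highest r, which is a description of the best match among many. They were Timm21 for Itga1 (r = 0.97), Ltbp1, a latent TGF-β binding protein of the ECM, for Itga11 (r = 0.90) and Zswim3 for Itga3 (r = 0.89). They were Lig4 for Itga6 (r = 0.95), Slc1a5, an amino acid transporter, for Itga7 (r = 0.99) and Tsta3 for Itga5 (r = 0.92). For Itga8, Itgav, Itgb1 and Itgb5 they were Zfp39 (r = 0.92), Slc30a5 (r = 0.92), Hspa13 (r = 0.98) and Mtch1 (r = 0.99), each over 12 mice.

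How far the differences between the groups moved with the lymphoid transcripts was measured with 2 other fits. At an unadjusted p under 0.05, Itga5 and Itga8 were lower with the score of the lymphoid markers as a covariate, and Itga5, Itga3 and Itga11 without AAV-GFP-2011 and AAV-GFP-2014. Itga5 hardly moved, with log2 fold changes of -0.47 (edgeR unadjusted p = 0.00152) and -0.48 (edgeR unadjusted p = 0.00139) in these fits. Itga11 and Itga3 also kept their size under the covariate, at -0.53 (edgeR unadjusted p = 0.0789) and -0.33 (edgeR unadjusted p = 0.0651), but no longer passed 0.05. Itga8 went from -0.27 to -0.52 (edgeR unadjusted p = 0.0311). Itga6 turned in both fits, to 0.07 and 0.00793, and Itga7 turned under the covariate. Itgb5 was at -0.26 (edgeR unadjusted p = 0.106) under the covariate, Itgb1 at -0.16 (edgeR unadjusted p = 0.123) and Itga1 at -0.11 (edgeR unadjusted p = 0.306).

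**Figure D4:**
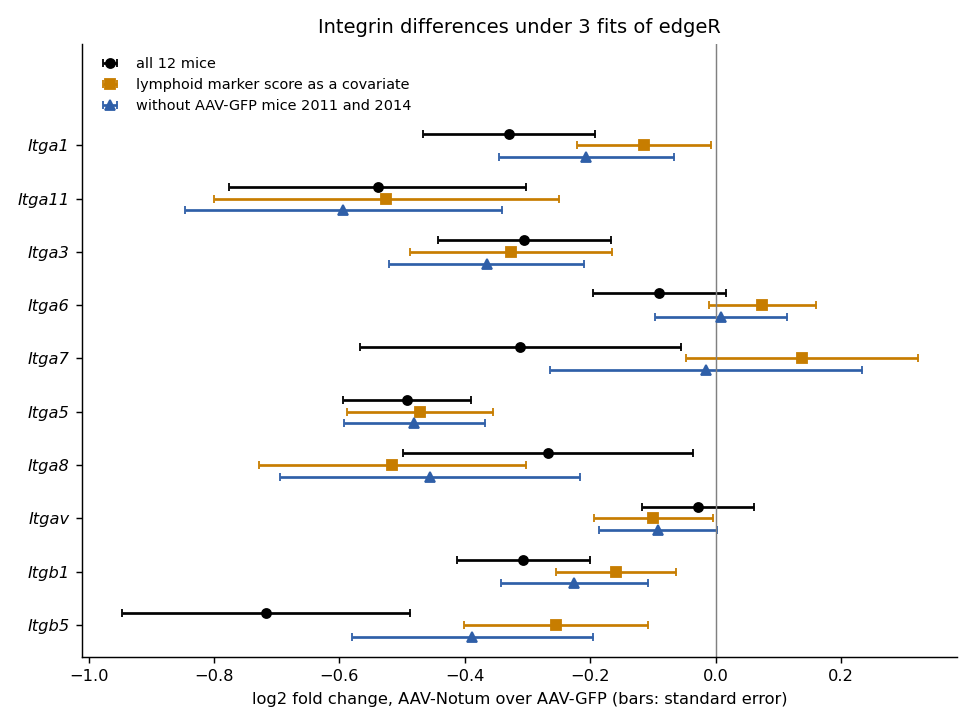
Log2 fold change of AAV-Notum over AAV-GFP for each integrin gene, with the standard error as bars, in edgeR with all 12 mice (circles), with the lymphoid score as a covariate (squares) and without AAV-GFP-2011 and AAV-GFP-2014 (triangles). The 3 values of Itga5 lie between -0.49 and -0.47, while those of Itgb5 run from -0.72 to -0.26 and those of Itga7 from -0.31 to 0.14.

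Among the other integrin genes, 7 of 8 with matrix or mixed ligands passed the filter (Itgb6 did not). Of these, 4 had fitted values below 0 and 3 above, at a median log2 fold change of -0.02. At an unadjusted p under 0.05 in edgeR, 0 of the 7 were called, against 9.54% lower and 4.64% higher of all genes tested. The 8 leukocyte integrins all had fitted values above 0, at a median of 0.64, where 7981 of all 15585 genes tested were above 0. At an unadjusted p under 0.05, 0 of the 8 were called, against the same shares of 9.54% and 4.64%. The 14 lymphoid markers tested were also all above 0, at a median log2 fold change of 0.98.

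Of the ligands, the collagens were lower throughout. All 11 collagen chains listed were lower at an unadjusted p under 0.05, at a median log2 fold change of -0.68, where 9.54% of all genes were. After adjustment over all genes, 0 of the 11 passed 0.05 in edgeR, where 0.0513% of all genes were called lower. For Col6a3 (-0.81) and Col6a1 (-0.72) every AAV-Notum mouse lay below every AAV-GFP mouse, as for 0.693% of all genes, and Col5a1 and Col6a2 were both at -0.68. Of 10 laminin chains tested, 6 were lower at an unadjusted p under 0.05, against the same 9.54%, and 0 at an adjusted p under 0.05 in edgeR. The median of the laminin chains was -0.51, with Lamb2 at -0.88, Lamc1 at -0.60, Lama3 at -0.56 and Lama5 at -0.54. Of 17 fibronectin-type and other RGD ligands, 6 were lower and 0 higher at an unadjusted p under 0.05, against 9.54% and 4.64% of all genes, with 13 fitted values below 0 and 4 above, and a median of -0.36. The matricellular Thbs2, at -1.16, passed at an adjusted p of 0.00917 in edgeR, and Thbs1, Fbln5 and Tgfb3 were at -1.50, -0.98 and -0.64. The groups also did not overlap for Thbs2 and Fbln5, against the same 0.693%. Fn1, fibronectin itself and the ligand of the Itga5 chain, had a log2 fold change of -0.02 and was named after its value was seen.

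Of 34 adaptor genes that join integrins to the cytoskeleton, 12 were lower and 1 higher at an unadjusted p under 0.05 (9.54% and 4.64% of all genes tested), at a median log2 fold change of -0.14 and 0 at an adjusted p under 0.05 in edgeR. The lower ones included Lims2 (-1.005), a partner of integrin-linked kinase, Tns2 (-0.64), a tensin, Tgfb1i1 (-0.62), a paxillin relative, and Csrp1 (-0.29). The higher one was Sharpin (0.35), which holds beta 1 integrin inactive, named after its value was seen; a single higher gene is below the share of higher genes overall. Of 13 other matrix receptors, 3 were lower at an unadjusted p under 0.05, against the same 9.54%: the laminin receptor Bcam (-0.57), the collagen receptor Ddr2 (-0.48) and Sdc4 (-0.36), with a median of -0.20.

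**Figure D5:**
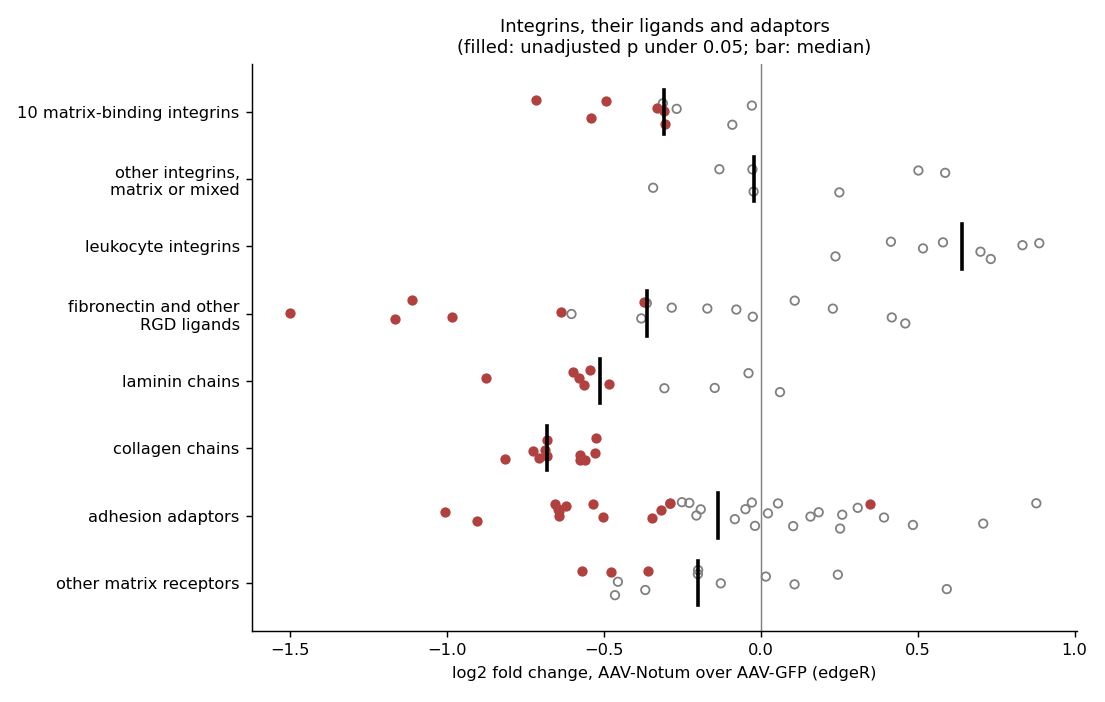
Log2 fold change of AAV-Notum over AAV-GFP from edgeR for each gene tested of 8 lists, with a point for each gene, filled where the unadjusted p is under 0.05, and a black bar at the median of the list. The 10 matrix-binding integrins centre at -0.31, the collagen chains at -0.68 and the leukocyte integrins at 0.64.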

How the data were processed

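Total RNA of iWAT from 12 mice (6 AAV-GFP, 6 AAV-Notum) was made into TruSeq libraries and sequenced as 50 bp single-end reads. The authors mapped reads to mm10 with STAR 2.3.1 and tested them with DESeq2; the read counter, annotation and use of strand are not given in the sources used here. The deposited table of counts holds reads per gene without normalization. A second table, deposited by the authors, holds log2 of reads over a size factor, plus 1. Undoing this gave whole reads (within 0.01) for 100% of values, but the same reads as in the first table for 6725 of 31137 shared genes and for 0 of the 10 integrin genes, whose totals were 96.1% to 103.5% of the first. It served as an alternative.

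Counts were fitted with edgeR 4.0.16 in R 4.3.3: filterByExpr (minimum count 10, minimum total 15), TMM, estimateDisp, glmQLFit and the two-sided quasi-likelihood test, with Benjamini-Hochberg adjustment over 15585 genes and a threshold of 0.05. Log2 CPM carry a prior count of 2. Mean log2 CPM of the groups was also compared by an exact two-sided permutation test (924 assignments of the mice, smallest p 0.00216), and permutation tests of a correlation used 100000 resamples. Levels per kilobase used exons of GENCODE vM21, a GRCm38 annotation that may differ from the authors'. Fits were tested on simulated counts. Mice were grouped by the labels. Alternatives were DESeq2 1.42.0, limma-voom (limma 3.58.1), RLE size factors, other filters, a prior count of 0.5, a robust fit, the RNA integrity number (5.7 to 7.6 in AAV-GFP, 6.9 to 7.4 in AAV-Notum mice) or the lymphoid score as a covariate, and left-out mice. Named were the 10 integrin genes, at most 4 genes per list (those of smallest p among those at an unadjusted p under 0.05, and any whose groups did not overlap), and the gene most like each member. Fn1 and Sharpin were added after their values were seen. The members and lists were chosen with earlier results of these data known. Gene counts of 15 to 41 reads per mouse (Itga8) carry more counting error than the others. Figures were drawn with matplotlib 3.10.9.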

Additional observations from a re-analysis of the deposited data

Results flagged for a closer look

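Of 42 groups of 6 mice (an integrin gene or a marker list), 7 held a mouse whose gap to its neighbour, divided by the range, exceeded the critical value of Dixon's test, where chance gives about 1 in 20, or 2.1. Mouse AAV-Notum-2034 had 27.9 CPM of Itga5, where the rest of its group had 19.7 to 21.7 CPM (ratio 0.758), and mouse AAV-Notum-2042 had 110.5 CPM of Itga1, where the rest had 71.1 to 85.2 CPM (ratio 0.643). Without these mice the log2 fold changes were -0.57 for Itga5 and -0.44 for Itga1. The same mouse had a summed level of skeletal muscle markers of 3908 CPM, where the rest had 19.1 to 553 CPM, and the part of muscle in its Itga1 level was not tested. In mouse AAV-GFP-2013 the epithelial markers summed to 21.5 CPM (1.35 to 7.39 CPM in the rest of its group) and the hepatocyte markers to 5297 CPM (299 to 1669 CPM). In mouse AAV-Notum-2041 these sums were 11.4 CPM (4.21 to 5.71 CPM in the rest of its group) and 897 CPM (175 to 415 CPM).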

How the results depend on the processing

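Itga5, Itgb1, Itgb5, Itga1, Itga3, Itga11 and Itga8 kept a fitted level below AAV-GFP under every alternative run. The count of integrin genes lower at an unadjusted p under 0.05 (6) was 2 with the lymphoid score as a covariate, 3 to 6 with each mouse left out, and 3 without the pair of mice low in lymphoid transcripts (AAV-GFP-2011, AAV-GFP-2014). At an adjusted p under 0.05 it was 0 with each mouse left out and 1 (Itga5) in both DESeq2 fits. The exact permutation count (5) was 2 without that pair and 2 to 4 with each mouse left out. Over all genes, the 8 lower and 0 higher calls of edgeR became 367 and 84 with DESeq2, 235 and 45 with DESeq2 without independent filtering, 13 and 1 with RLE size factors, and 14 and 1 with at least 10 counts in every mouse. The lower calls were 5 without the filter, 4 with the lymphoid covariate, 4 with limma on the deposited normalized table, and 1 without that pair; reads recovered from that table gave 1 higher call. With each mouse left out they ran from 1 to 146 lower (146 without AAV-GFP-2022, 1 without AAV-Notum-2033) and from 0 to 12 higher.

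The log2 fold changes of Itga6 and Itga7 turned to 0.0743 and 0.137 with the lymphoid covariate. Without the pair of mice, Itga6 was 0.00793 (0.0164 as a difference of mean log2 CPM), and the log2 ratios to Itgb1 of Itga1, Itga3 and Itga8 differed by 0.0108, -0.127 and -0.207. With each mouse left out, Itgav ran from -0.0763 to 0.0162 as a log2 fold change and from -0.0774 to 0.0142 as a difference of mean log2 CPM. The log2 fold changes of Itga6, Itga7 and Itga8 then ran from -0.147 to -0.0279, from -0.450 to -0.175 and from -0.401 to -0.171. The ratio differences of Itga1, Itga3, Itga7 and Itga8 ran from -0.0823 to 0.0116, from -0.0715 to 0.0983, from -0.0704 to 0.121 and from -0.0483 to 0.207. With the summed CPM of all members in place of Itgb1, the ratio of Itgb5 differed by -0.33 and passed 0.05 (exact permutation p = 0.0476). The cause was not tested. No paired analysis was possible because the groups share no mouse numbers.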
